A study of Mus musculus with 24 samples.

Results

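Interferon response genes are the genes that cells switch on when interferon receptors, or the sensors of viral nucleic acid that act before them, are engaged. A list of 40 such genes was taken by gene symbol and followed in mouse primary hepatocytes that had all received an adenovirus. Of the 40, 36 had a probe set of their own and were measured, among 22180 genes measured in that way. The other 4 were not measured here: Dtx3l shared its probe set with Parp9, Oas1a with Oas1g and Gbp2 with Gbp2b, and Ifi44 was not matched to a probe set. Of the 36, 24 lay above the floor of the arrays and 12 lay near it. A gene is called near the floor where its mean over the 24 arrays was under 4.25 on the log2 scale, which is the median of all probe sets, 3.25, plus 1. By that rule 8613 of the 22180 genes were above the floor.

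Gene expression was measured on Affymetrix MoGene 2.0 ST arrays in hepatocytes of male C57Bl6J mice, in 8 groups of 3 arrays. The groups crossed an adenoviral short hairpin RNA against FOXA2, a liver transcription factor (shFOXA2), or against the bacterial gene lacZ, which mouse cells lack (shlacZ), with 100 nM glucagon or 1 nM insulin, and with 2 µM GW4064 or its solvent DMSO. GW4064 activates FXR, the nuclear receptor of bile acids. The 8 groups were thus shFOXA2 with glucagon and GW4064, shFOXA2 with glucagon and DMSO, shFOXA2 with insulin and GW4064, shFOXA2 with insulin and DMSO, and the same 4 treatments with shlacZ. In all groups the virus was added at a multiplicity of infection of 5, treatment lasted 4 h, and the medium held 100 nM dexamethasone, a glucocorticoid. Because all 24 arrays carried the virus, what the virus itself does to these genes cannot be told from these data. No group lacked both hormones, so a higher level under glucagon cannot be told apart from a lower level under insulin. Each of the 3 experiments used 1 pool of hepatocytes from 3 mice for all 8 groups. Experiment and pool cannot be told apart, and the arrays of an experiment share their cells.

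Viral RNA in the cytosol is bound by sensors such as MDA5 (gene Ifih1), whose signal leads to interferon production. Interferons bind receptors coupled to JAK kinases, and type I interferon assembles a factor with STAT2 and IRF9 that binds the interferon-stimulated response element (ISRE), whereas interferon gamma acts through the gamma-activated site (GAS). The genes so induced block viral replication, tag proteins with ISG15, attack vacuoles of intracellular pathogens and load peptides onto MHC class I molecules. Hepatocytes carry receptors of these pathways and respond to interferons.

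Markers of the labelled cell type were present. All 6 hepatocyte markers were above the floor, with Alb, the albumin gene, at a mean of 13.07 on the log2 scale. Dendritic cell markers were near the floor in 4 of 4 cases, lymphocyte markers in 5 of 5, macrophage and Kupffer cell markers in 6 of 7 (Cd68 was at 9.12), stellate cell markers in 4 of 5, cholangiocyte markers in 2 of 4 and endothelial markers in 2 of 5. In bulk RNA, fewer cells of a type and less RNA per cell cannot be told apart. Foxa2, the target of the hairpin, had a lowest, median and highest level of 5.54, 6.44 and 7.21 with shFOXA2, against 6.07, 6.70 and 7.72 with shlacZ. Paired by experiment and treatment, it was lower with shFOXA2 in 12 of 12 pairs, by -0.43 on average (SE 0.072, limma adjusted p = 0.0613, and 0.0194 with the experiment as a block). By experiment the pairs averaged -0.51 (experiment 1), -0.66 (experiment 2) and -0.12 (experiment 3). In experiment 3, 3 arrays stood apart most in the chemokine genes Cxcl1 or Cxcl2, and the rest of that experiment was unusual in Cxcl1 too. In experiments 1 and 2 Cxcl1 lay between 4.45 and 5.64 with glucagon, against 7.74 to 8.61 with insulin. In experiment 3 the glucagon arrays of shlacZ cells were at 8.08 (DMSO) and 8.64 (GW4064), against 7.19 and 6.96 with insulin. These 2 arrays thus went against their hormone label in Cxcl1, and in Cxcl2 too (6.03 and 7.11, against 5.56 and 5.20). In shFOXA2 cells of experiment 3, Cxcl1 was at 6.06 (DMSO) and 6.90 (GW4064) with glucagon, against 8.75 and 7.33 with insulin. All 8 arrays of experiment 3 therefore lay outside the Cxcl1 range of their hormone in experiments 1 and 2. The insulin array of shFOXA2 cells with DMSO followed its label in Cxcl1 and stood apart in Cxcl2, at 8.12, against 5.20 to 5.92 on the other insulin arrays. Foxa2 followed the hormone label on all 24 arrays, with 6.79 to 7.72 under glucagon, against 5.54 to 6.30 under insulin. The labels were used as given, and whether samples were exchanged was not tested. The main counts are also given without these 3 arrays, which does not make the rest of experiment 3 like experiments 1 and 2 in Cxcl1.

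The promoter windows of the genes were searched for the 2 motifs through which interferons act, in the stretch from 250 bases before to 50 bases after the start of each gene, from RefSeq on GRCm38.p6. Of the 40 genes, 30 had a window in the table, with 34 windows in all. In 20 of the 34 the start was also the 5′ end of the gene in RefSeq. Positions given below depend on the start used. The core of the ISRE, which is GAAA, any 2 bases and GAAA again, read on either strand, was found in 16 of the 30 (53.3%), against 3.99% of all 27025 genes in the table and 3.44% of its 32851 windows. The GAS letters TTCNNNGAA, which read the same on both strands, were found in 8 of the 30 (26.7%), against 9.55% of all genes and 8.3% of windows. The following stretches show the match nearest the 5′ end of the window in the 10 genes that had an ISRE core and were measured above the floor, each read in the direction of its gene. Capitals mark the ISRE core, which appears as a pair of GAAA or, where it lies on the other strand, of TTTC.
Ifih1, chr2:62646206-62646233 (minus strand): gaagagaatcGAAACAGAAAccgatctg
Eif2ak2, chr17:78882535-78882564 (minus strand): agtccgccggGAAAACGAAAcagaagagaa
Stat2, chr10:128270266-128270295 (plus strand): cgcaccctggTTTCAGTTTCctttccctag
Isg15, chr4:156200877-156200906 (minus strand): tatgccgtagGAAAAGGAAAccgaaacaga
Rsad2, chr12:26456553-26456582 (minus strand): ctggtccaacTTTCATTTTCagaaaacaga
Bst2, chr8:71537583-71537612 (minus strand): ggcattccagGAAAATGAAActgaaaggct
Gbp7, chr3:142530273-142530302 (plus strand): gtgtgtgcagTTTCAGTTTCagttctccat
Igtp, chr11:58199512-58199541 (plus strand): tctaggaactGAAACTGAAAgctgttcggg
Irgm1, chr11:48871431-48871460 (minus strand): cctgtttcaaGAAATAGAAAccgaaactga
B2m, chr2:122147538-122147567 (plus strand): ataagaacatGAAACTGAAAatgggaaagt
The stretches show a shared core with flanks that differ from gene to gene. In 8 of the 10 the match lay before the start of the gene, and in Ifih1 and Eif2ak2 it lay 32 and 18 bases after it. Isg15 held 3 matches that overlap one another, and Bst2 and Irgm1 held 2 each that overlap. In these genes capitals mark the first match only, and the further matches run on into the lower-case letters. A match of letters is a description and not evidence that a factor binds there.

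The levels themselves ranged widely between genes, which on these arrays partly follows from the brightness of each probe set, so that levels are compared only within a gene. Among the sensors and effector kinases, Ifih1 had a mean of 7.10 over the 24 arrays, Eif2ak2, the kinase PKR that halts translation on binding double-stranded RNA, 7.38, and Trim25, a ubiquitin ligase that activates the RNA sensor RIG-I, 8.19. Zbp1, a sensor of Z-form nucleic acid, was near the floor at 4.02. All 4 transcription factors were above the floor, with means of 7.18 for Stat2, 5.78 for Irf7, the main inducer of interferon genes, 5.74 for Irf9 and 4.47 for Irf1. Isg15, the ubiquitin-like modifier, stood at 5.91 and Usp18, the protease that removes it and dampens interferon receptor signalling, at 7.43.

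Of the antiviral effectors, 6 of 11 measured were above the floor. Bst2, which encodes tetherin, the protein that holds budding virus at the cell surface, had a mean of 9.75 and ranged from 9.37 to 10.09. Parp14, an ADP-ribosyltransferase, had a mean of 6.83, Rsad2, which encodes viperin, an enzyme that makes a chain-terminating nucleotide, 6.12, Rtp4, an interferon-induced transporter protein gene, 5.68, Xaf1, a proapoptotic gene, 5.01, and Cmpk2, a mitochondrial nucleotide kinase, 4.76. The other 5 were near the floor. Ifit1, Ifit2 and Ifit3, which are strongly induced by interferon in many cell types and whose proteins bind viral RNA, had means of 3.59, 3.31 and 4.03, and the dynamin-like antiviral GTPases Mx1 and Mx2 2.73 and 3.00. In C57BL/6 mice the Mx genes are known to carry defects. Of the OAS family, enzymes that activate RNase L, Oas2 (3.04), Oas3 (2.90) and Oasl2 (3.08) were near the floor, and Oasl1, a family member that represses translation of Irf7, was above it at 5.06.

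Of the interferon-inducible GTPases, which attack the vacuoles of intracellular pathogens, Igtp (6.76), Gbp7 (5.99), Irgm1 (5.57) and Iigp1 (5.06) were above the floor, and Gbp3 (3.46) and Gbp6 (2.82) were near it. Of the antigen presentation genes, B2m, the light chain of MHC class I, had a mean of 12.49 with a range of 12.21 to 12.75. Tap1, which pumps peptides into the endoplasmic reticulum, stood at 6.01, the immunoproteasome subunit gene Psmb8 at 5.59 and Nlrc5, the transactivator of MHC class I genes, at 4.75. Psmb9, another immunoproteasome subunit, was near the floor at 2.99. Over the 24 arrays the genes that varied most were Xaf1 (4.02 to 5.88), Iigp1 (4.45 to 6.28) and Rsad2 (5.30 to 7.10), whereas B2m varied by 0.54 in all.

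**Figure D1:**
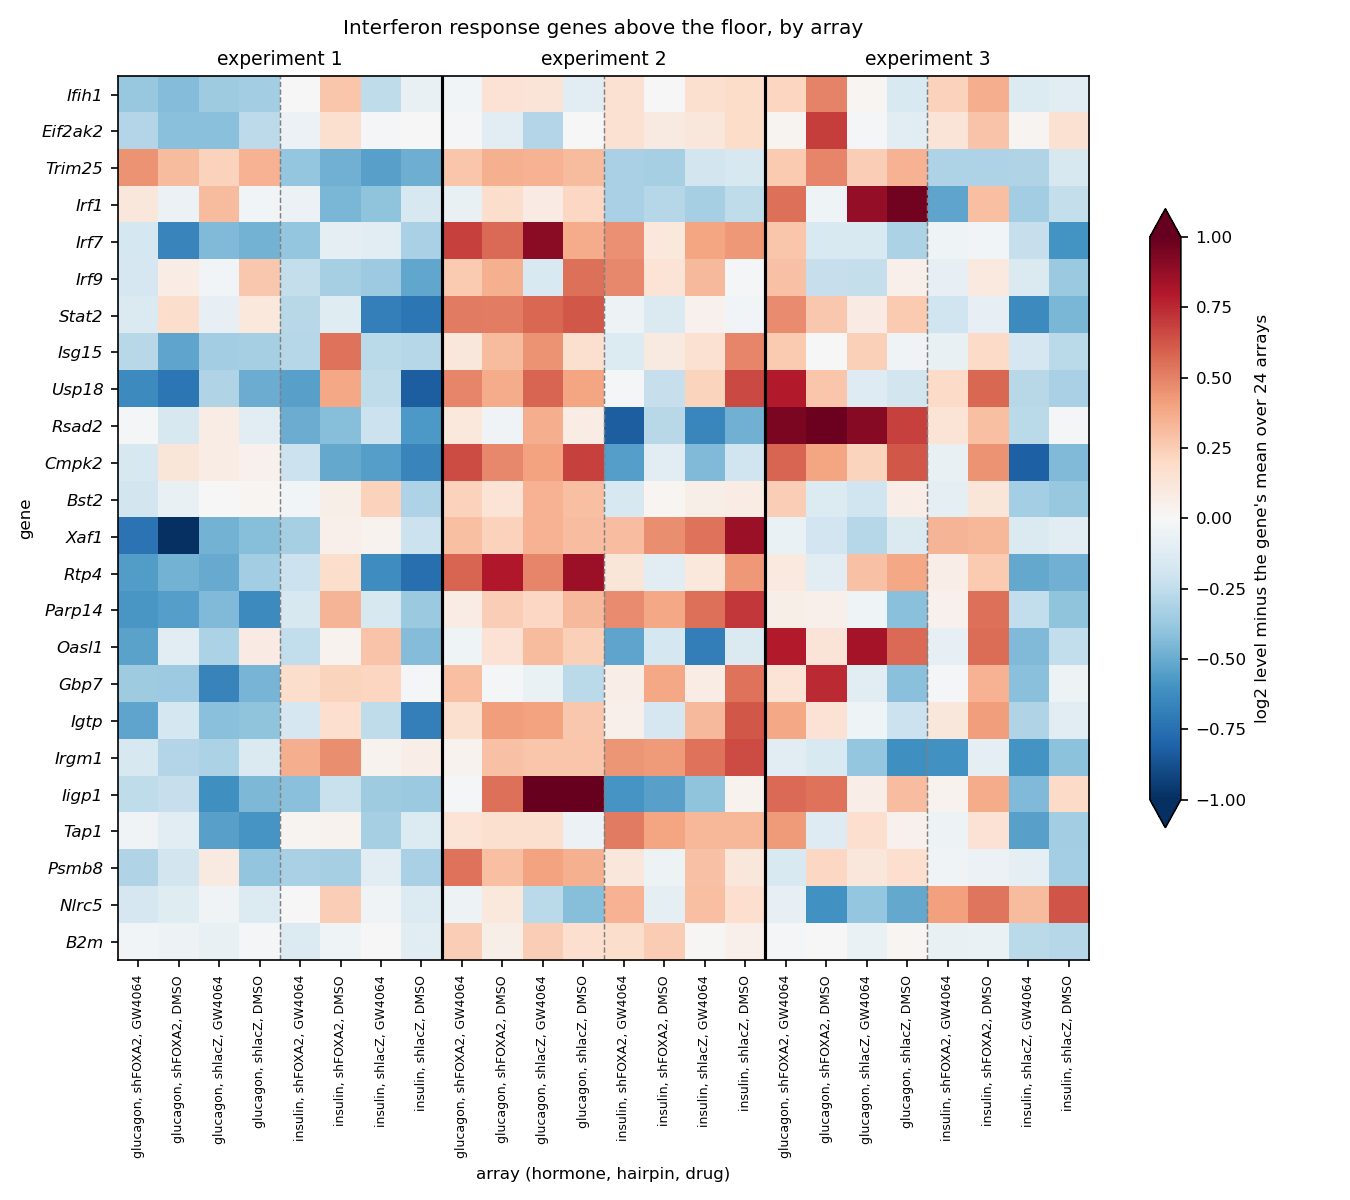
Levels of the 24 interferon response genes above the floor (rows) on the 24 arrays (columns, grouped by experiment, glucagon left of insulin), as the log2 level minus the gene's own mean over all arrays; the colour scale is cut at -1 and 1. Experiment 1 is mostly blue and experiment 2 mostly red, and Trim25 changes colour with the hormone in every experiment.

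A few of these genes differed between glucagon and insulin, with no common direction over the list. Averaged over hairpin and drug, 5 of the 36 genes were higher and 1 was lower under glucagon (limma, adjusted p under 0.05 over all 22180 genes). That is 16.7% of the genes, and 16.2% of all genes passed in the same comparison, 7.38% higher and 8.85% lower. Of the 24 genes above the floor 25.0% passed, against 35% of all genes above the floor. The share of interferon response genes that passed was thus near that of all genes or below it. The median difference over the 36 was 0.00, against 0.01 over all genes. With the experiment as a block, 8 were higher and 4 lower, against 24.6% of all genes passing, and 45.8% of those above the floor passed, against 52% of all genes above the floor. Without the 3 arrays of experiment 3 that stood apart, again 5 were higher and 1 lower. With the block these were 9 and 2, against 23.7% of all genes passing. Markers of other cell types passed in 2 cases without the block. These were the stellate cell marker Dcn (0.35 higher under glucagon, adjusted p = 0.0252, 1 of 5 stellate markers) and the cholangiocyte marker Sox9 (-1.20, adjusted p = 4.6e-04, 1 of 4). With the block 3 stellate markers (Dcn, Lrat and Reln) and the macrophage marker Cd68 were higher and 2 cholangiocyte markers (Sox9 and Krt19) were lower. The mean level of the stellate list lay between 3.80 and 4.13 under glucagon and between 3.60 and 3.85 under insulin, and that of the cholangiocyte list between 4.09 and 4.44 under glucagon and between 4.39 and 5.10 under insulin. Their part in the results was not tested.

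Of the genes grouped with the sensors and effector kinases, Trim25 was higher under glucagon than under insulin. Under glucagon its lowest, median and highest level on 12 arrays were 8.42, 8.52 and 8.68, against 7.65, 7.87 and 8.03 under insulin. The arrays of the 2 hormones did not overlap, and Trim25 was higher in 12 of 12 pairs, by 0.47 to 0.84. The averaged difference was 0.66 (SE 0.049, 1.58-fold, adjusted p = 4.6e-09), and by experiment it was 0.81, 0.57 and 0.60 in experiments 1, 2 and 3. Eif2ak2 was at -0.20 and did not pass (adjusted p = 0.165), with 11 of 12 pairs lower. With the block it passed (adjusted p = 0.0442). Of 35 alternatives, the block among them, it passed in 3 and not in 32, with limma adjusted p from 0.00195 to 0.619. The lowest came without the glucagon array of shFOXA2 DMSO cells in experiment 3 (-0.28). On that array Eif2ak2 reached 8.07, and its pair was the one that went the other way. Ifih1 at -0.13 and Zbp1 at -0.03 did not pass.

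Among the transcription factors Stat2 and Irf1 were higher under glucagon. Stat2, a subunit, beside IRF9, of the factor that type I interferon assembles, ranged from 7.03 through a median of 7.44 to 7.79 under glucagon, against 6.45, 7.00 and 7.22 under insulin. The ranges overlapped, and each of the 12 pairs was higher under glucagon, with a difference of 0.56 (SE 0.11, 1.47-fold, adjusted p = 8.0e-04). Irf1, the factor that interferon gamma induces through a GAS, had a lowest, median and highest level of 4.40, 4.62 and 5.44 under glucagon, against 3.94, 4.16 and 4.77 under insulin. The difference was 0.52 (SE 0.12, 1.43-fold, adjusted p = 0.00341), with 11 of 12 pairs higher. The exception was the shFOXA2 DMSO pair of experiment 3, whose insulin array is one of the 3 that stood apart. Irf1 was higher by 0.35, 0.40 and 0.79 in experiments 1, 2 and 3. Irf9 (0.17) and Irf7 (0.07) did not pass.

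Of the antiviral effectors, the neighbouring genes Rsad2 and Cmpk2 were higher under glucagon. Rsad2 had a lowest, median and highest level of 5.96, 6.21 and 7.10 under glucagon, against 5.30, 5.77 and 6.42 under insulin. It was higher in 12 of 12 pairs, with a difference of 0.63 (SE 0.16, 1.55-fold, adjusted p = 0.00961). The spread between experiments was wide in Rsad2, and its call was lost without experiment 1 (adjusted p = 0.0503) and without experiment 2 (adjusted p = 0.153), while with the block the adjusted p was 1.4e-06. Cmpk2 stood at 4.60, 5.16 and 5.45 under glucagon, against 3.95, 4.32 and 5.21 under insulin. The difference was 0.69 (SE 0.12, 1.61-fold, adjusted p = 2.1e-04), with 11 of 12 pairs higher. The exception was again the shFOXA2 DMSO pair of experiment 3.

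The other effectors did not pass without the block. Xaf1 had a lowest, median and highest level of 4.02, 4.85 and 5.36 under glucagon, against 4.69, 5.19 and 5.88 under insulin. It was lower in 12 of 12 pairs, at -0.36, which passed only with the block (adjusted p = 0.195, and 0.00207 with it). Parp14 was at -0.28 (10 of 12 pairs lower, adjusted p = 0.282, and 0.0208 with the block) and Ifit1, near the floor, at 0.26 (adjusted p = 0.364, and 0.0301 with the block). Rtp4 at 0.25 and Bst2 at 0.12 did not pass, and neither did Ifit2, Ifit3, Mx1 or Mx2. In the ISG15 system, Isg15 was at 0.00 and Usp18 at 0.07, and neither passed. None of the 4 OAS genes measured passed, with Oasl1 at 0.35.

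None of the 6 GTPase genes measured passed without the block. Iigp1 ranged from 4.45 through a median of 5.25 to 6.28 under glucagon, against 4.47, 4.70 and 5.43 under insulin. It differed by 0.45 and passed only with the block (adjusted p = 0.138, and 0.0357 with it). By experiment it was -0.04, 1.07 and 0.33, so that it lay mostly in experiment 2. Gbp7 (-0.25), Irgm1 (-0.21) and Igtp (0.00) did not pass.

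Nlrc5 was the gene that was lower under glucagon than under insulin. Under glucagon its lowest, median and highest level were 4.14, 4.60 and 4.85, against 4.61, 5.03 and 5.38 under insulin. It was lower in 11 of 12 pairs, at -0.45 (SE 0.099, 1.37-fold lower, adjusted p = 0.00252). The size differed between experiments, with values of -0.14, -0.34 and -0.87 by experiment, and the call was lost without experiment 3 (-0.24, adjusted p = 0.103). Of the MHC class I pathway genes, B2m (0.08) and Tap1 (-0.06) did not pass, and Psmb8 at 0.19 passed only with the block (adjusted p = 0.295, and 0.0172 with it). A test of whether the hormone difference varied between experiments, chosen after seeing the data, called 0 of the 36 genes and 1.19% of all genes, with limma adjusted p of 0.097 for Nlrc5 and 0.0822 for Tap1. Unadjusted, 10 of the 36 had a p under 0.05, against 10.6% of all genes.

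**Figure D2:**
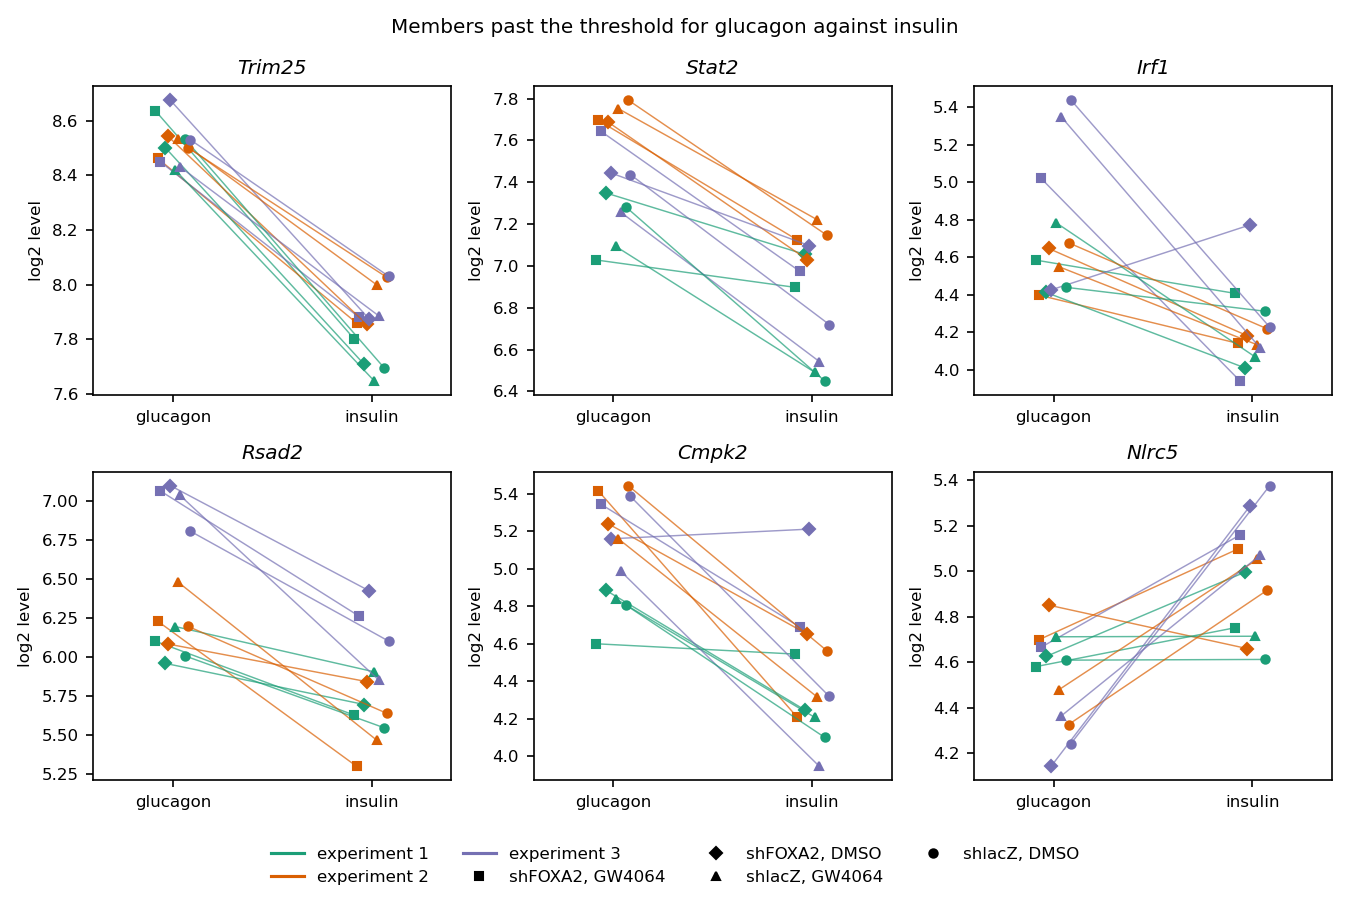
Log2 levels of the 6 interferon response genes that passed for glucagon against insulin, glucagon left and insulin right, with lines joining arrays of the same experiment, hairpin and drug (12 pairs per gene). Trim25 is higher under glucagon in every pair without overlap, and Nlrc5 is lower in 11 of 12 pairs, most in experiment 3.

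The promoter windows of 4 of the 5 genes that were higher under glucagon are shown. Capitals mark a GAS in Irf1 and an ISRE core in Stat2 and Rsad2, and the window of Trim25 held neither.
Trim25: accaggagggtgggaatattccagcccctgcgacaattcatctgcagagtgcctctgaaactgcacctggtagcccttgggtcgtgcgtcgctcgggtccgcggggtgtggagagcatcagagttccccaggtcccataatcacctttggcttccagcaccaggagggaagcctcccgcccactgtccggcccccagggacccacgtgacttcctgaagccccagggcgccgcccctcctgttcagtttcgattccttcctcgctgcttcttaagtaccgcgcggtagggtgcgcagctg
Irf1: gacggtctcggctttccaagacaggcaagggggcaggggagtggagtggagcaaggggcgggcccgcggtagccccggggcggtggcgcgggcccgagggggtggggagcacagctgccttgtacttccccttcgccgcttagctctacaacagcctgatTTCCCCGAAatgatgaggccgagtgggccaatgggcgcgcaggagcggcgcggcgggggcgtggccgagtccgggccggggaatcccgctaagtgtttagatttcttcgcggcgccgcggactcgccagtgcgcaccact
Stat2: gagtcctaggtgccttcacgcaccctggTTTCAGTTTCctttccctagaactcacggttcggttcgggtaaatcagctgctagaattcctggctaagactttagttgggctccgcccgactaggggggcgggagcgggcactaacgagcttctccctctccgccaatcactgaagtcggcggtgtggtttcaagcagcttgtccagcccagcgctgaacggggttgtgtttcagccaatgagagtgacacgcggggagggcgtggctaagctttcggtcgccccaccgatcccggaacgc
Rsad2: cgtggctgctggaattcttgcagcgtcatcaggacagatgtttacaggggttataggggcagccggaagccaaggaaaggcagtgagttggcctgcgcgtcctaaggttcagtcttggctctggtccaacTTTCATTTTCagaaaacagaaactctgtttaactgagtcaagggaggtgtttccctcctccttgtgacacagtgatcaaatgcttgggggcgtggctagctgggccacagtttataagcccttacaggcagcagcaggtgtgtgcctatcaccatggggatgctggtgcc
The windows lie at chr11:88999153-88999452 (plus strand) for Trim25, chr11:53769764-53770063 (plus) for Irf1, chr10:128270248-128270547 (plus) for Stat2 and chr12:26456403-26456702 (minus) for Rsad2, on GRCm38.p6. The window of Cmpk2 held neither motif, and Nlrc5 had no entry. The cyclic AMP response element TGACGTCA, which reads the same on both strands and was searched for after the values were seen, was found in 0 of the 30 windows' genes, against 2.03% of all genes. That says only that these letters are not in these windows.

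Within single conditions the comparison rested on 3 against 3 arrays. In shFOXA2 cells with GW4064, 1 gene was higher under glucagon than under insulin (Trim25, 0.67), against 3.49% of all genes passing. In shFOXA2 cells with DMSO 1 gene was higher (Trim25, 0.76), against 4.79%. In shlacZ cells with GW4064 1 gene was higher (Trim25, 0.62), against 3.09%. In shlacZ cells with DMSO 2 genes were higher (Trim25, 0.60, and Cmpk2, 0.89), against 4.68%. Trim25 thus passed in each of the 4 conditions. In shlacZ cells with DMSO its levels in experiments 1, 2 and 3 were 8.53, 8.50 and 8.53 with glucagon, against 7.70, 8.03 and 8.03 with insulin. Those of Cmpk2 were 4.81, 5.45 and 5.39 with glucagon, against 4.10, 4.56 and 4.32 with insulin (SE 0.24, adjusted p = 0.0336). The call of Cmpk2 was lost without experiment 2 (adjusted p = 0.284), without experiment 3 (0.178), with quantile normalization (0.0594) and without the 3 arrays that stood apart (0.0875).

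With the experiment as a block, 4 genes passed in shFOXA2 cells with GW4064 (Trim25, Stat2, Rsad2 and Cmpk2, all higher), against 9.14% of all genes. In shFOXA2 cells with DMSO 2 were higher (Trim25 and Stat2) and 1 lower (Xaf1), against 11.3%. In shlacZ cells with GW4064 5 were higher (Trim25, Irf1, Stat2, Rsad2 and Cmpk2), against 8.41%, and with DMSO 5 were higher (Trim25, Irf9, Stat2, Rsad2 and Cmpk2), against 11.2%. Stat2 therefore passed with the block in each condition. Without the 3 arrays that stood apart, the counts with the block were 5, 1, 5 and 4 in the same order of conditions. Of all genes, 9.59%, 9%, 7.69% and 9.59% passed in that order. The count of shFOXA2 with DMSO was the one that lost most. The interaction tests of hormone by hairpin, hormone by drug and hairpin by drug each called 0 of the 36 genes and 0% of all genes (limma). Unadjusted, 0, 0 and 1 of the 36 had a p under 0.05, against 4.15%, 2.63% and 3.18% of all genes.

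GW4064 against DMSO called none of the 36 genes, with 0.00902% of all genes passing (0 genes with the block too, against 0.0135%). Unadjusted, 2 genes had a p under 0.05, against 3.45% of all genes. The averaged differences lay between -0.23 for Iigp1 and 0.20 for Irf7. Iigp1 had a lowest, median and highest level of 4.45, 4.76 and 6.09 with GW4064, against 4.52, 5.17 and 6.28 with DMSO, and Irf7 5.33, 5.70 and 6.68 with GW4064, against 5.12, 5.65 and 6.34 with DMSO. In both genes the ranges overlapped almost entirely. For 23 of the 24 genes above the floor, the 95% interval of the difference lay within 1.5-fold in either direction. The exception was Iigp1, with an interval of -0.64 to 0.17.

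The hairpin against FOXA2 likewise called none of the 36 genes, with 0.00902% of all genes passing (0 genes with the block, against 0.0766%). Unadjusted, 2 genes had a p under 0.05, against 6.20% of all genes. Above the floor the differences of shFOXA2 minus shlacZ lay between -0.11 for Irf1 and 0.27 for Gbp7, and the 95% interval lay within 1.5-fold for 24 of 24 genes. Gbp7 had a lowest, median and highest level of 5.62, 6.15 and 6.74 with shFOXA2, against 5.32, 5.90 and 6.53 with shlacZ (SE 0.12, adjusted p = 0.757). Tap1 was at 0.25, with 5.88, 6.10 and 6.53 with shFOXA2, against 5.42, 5.91 and 6.34 with shlacZ (SE 0.12, adjusted p = 0.807), and 10 of its 12 pairs were higher. The groups overlapped in both genes. None of the 8 comparisons of GW4064 or of the hairpin within a single condition called any of the genes, with at most 0.00451% of all genes passing, the hairpin with insulin and DMSO. Unadjusted, at most 1 of the 36 genes had a p under 0.05 in any of the 8, against 2.23% to 4.83% of all genes.

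The median over the 24 genes above the floor of the shFOXA2 minus shlacZ difference was 0.08, -0.08 and 0.27 in experiments 1, 2 and 3. In these experiments 16, 7 and 23 of the 24 were higher with shFOXA2, against 57.8%, 61.2% and 61.6% of all genes above the floor. The direction was therefore not shared by the experiments. Foxa2 differed by -0.51, -0.66 and -0.12 in the same order, and whether its fall bears on these genes was not tested. For glucagon minus insulin the medians were -0.13, 0.18 and 0.16, with 8, 16 and 20 of the 24 higher, against 52.0%, 47.4% and 48.7% of all genes above the floor. For GW4064 minus DMSO they were -0.02, -0.05 and -0.03. Without the 3 arrays that stood apart, experiment 3 kept 1 pair for the hairpin and 1 for the hormone. The shFOXA2 minus shlacZ pair with insulin and GW4064 had a median of 0.32, with 21 of the 24 higher, and the glucagon minus insulin pair in shFOXA2 cells with GW4064 had 0.34, with 19 higher.

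**Figure D3:**
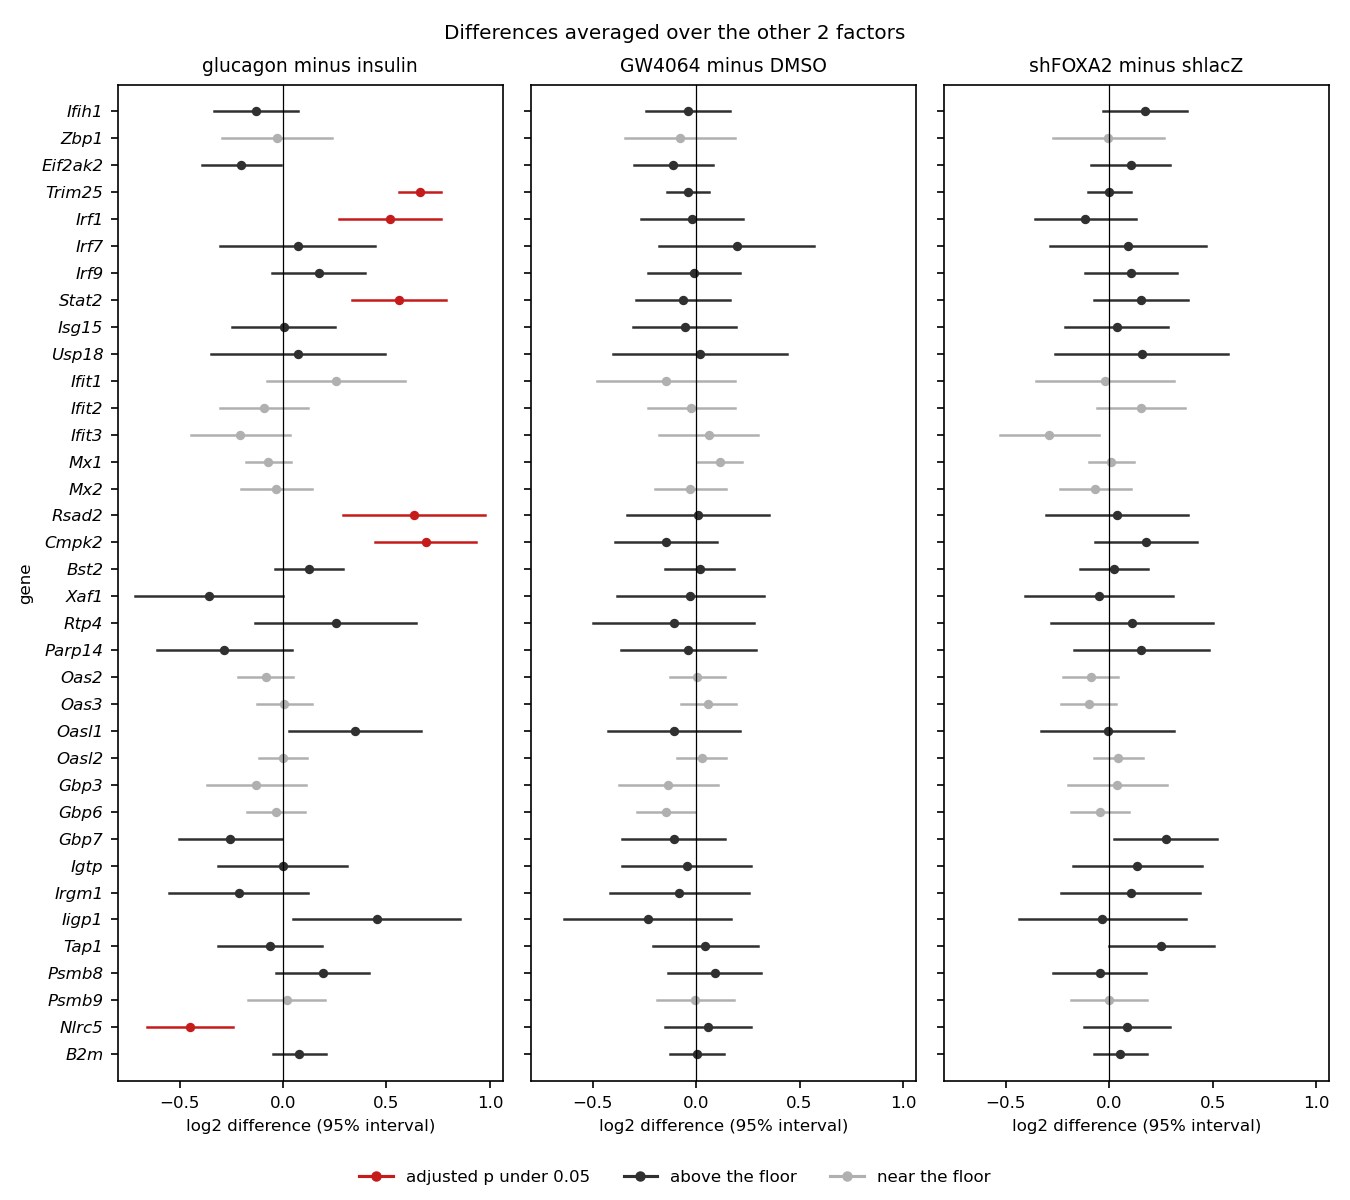
Averaged log2 differences of the 36 interferon response genes measured, with 95% intervals from limma, for glucagon minus insulin (left), GW4064 minus DMSO (middle) and shFOXA2 minus shlacZ (right). Red marks the 6 genes with an adjusted p under 0.05, all in the left panel, and grey the 12 genes near the floor.

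Many of these genes differed between the experiments, most of them with the lowest level in experiment 1. The test of a difference between experiments called 23 of the 36 genes, against 30.2% of all genes. Above the floor it called 18 of 24, which is 75%, against 60% of all genes above the floor. Many genes of every kind differed between experiments, so that the count alone says little of this list. The 8 arrays of an experiment share 1 pool of cells, and the p-values measure only the spread between arrays. The order of the experiments was more uneven than the count. Experiment 1 had the lowest mean in 20 of the 24 genes (83.3%), against 22.7% of all genes above the floor, and experiment 1 had the highest mean in 0 of them, experiment 2 in 16 and experiment 3 in 8. The median difference of experiment 2 minus experiment 1 was 0.39, against -0.02 over all genes above the floor, that of experiment 3 minus experiment 1 was 0.25, against -0.05, and that of experiment 2 minus experiment 3 was 0.20, against 0.03.

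The same order showed on single arrays. The median deviation of the 24 genes from their own means lay between -0.33 and 0.04 on the 8 arrays of experiment 1, between -0.03 and 0.35 in experiment 2 and between -0.29 and 0.29 in experiment 3. The array at 0.29 in experiment 3 was that of shFOXA2 cells with insulin and DMSO, which is one of the 3 that stood apart. Without the 3 arrays that stood apart, 18 of the 36 genes were called between experiments, against 5908 of all 22180 genes. Experiment 1 was again the lowest in 20 of the 24 genes above the floor, against 23.2% of all genes above it. Without experiment 1 the count was 13, without experiment 2 it was 15 and without experiment 3 it was 19.

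The adjusted p-values given for single genes here are those of the test over all 3 experiments. The largest differences between experiments were those of Irf7, Rtp4 and Xaf1. Irf7 averaged 6.27 ± 0.24 in experiment 2 (range 5.88 to 6.68), against 5.44 ± 0.20 in experiment 1 (5.12 to 5.68; SD, n = 8 arrays each), a difference of 0.82 (SE 0.10, adjusted p = 4.5e-06), and 5.62 ± 0.25 in experiment 3. The arrays of experiments 2 and 1 did not overlap in Irf7. Rtp4 averaged 6.09 ± 0.34 in experiment 2, against 5.27 ± 0.29 in experiment 1 (adjusted p = 2.5e-04), and 5.68 ± 0.34 in experiment 3. Xaf1 averaged 5.44 ± 0.21 in experiment 2, against 4.63 ± 0.36 in experiment 1 (adjusted p = 9.3e-06), and 4.98 ± 0.24 in experiment 3. In Xaf1 too, the lowest array of experiment 2 (5.25) lay above the highest of experiment 1 (5.06).

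Not every gene followed that order. Rsad2 was highest in experiment 3, at 6.58 ± 0.49, against 5.90 ± 0.41 in experiment 2 and 5.88 ± 0.23 in experiment 1 (adjusted p = 4.5e-06). Irgm1 was lowest in experiment 3, at 5.20 ± 0.23, against 5.93 ± 0.19 in experiment 2 and 5.57 ± 0.29 in experiment 1 (adjusted p = 5.1e-05). B2m averaged 12.40 ± 0.12 in experiment 3, 12.65 ± 0.099 in experiment 2 and 12.44 ± 0.046 in experiment 1, a small difference that passed (adjusted p = 6.1e-04). Of the genes above the floor, Bst2, Trim25, Gbp7, Oasl1, Nlrc5 and Irf1 did not pass between experiments.

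Some markers of cell types were also called between the experiments. In that test 30.2% of all genes passed, and 60% of all genes above the floor. The marker lists are short, and their counts are not read as an excess. Of the 5 endothelial markers, 4 passed. The mean level of that list was 4.94 to 5.18 in experiment 1, 4.08 to 4.30 in experiment 2 and 4.36 to 4.58 in experiment 3. Of 5 stellate markers 3 passed and of 4 cholangiocyte markers 1, Krt19, with 4.83, 4.80 and 3.78 in experiments 1, 2 and 3. Of 7 macrophage markers 3 passed, with a list mean of 3.70 to 3.88 in experiment 1, 3.54 to 3.77 in experiment 2 and 3.81 to 4.02 in experiment 3. Of the 6 hepatocyte markers 4 passed, and the list averaged 10.22 in experiment 1, 9.69 in experiment 2 and 10.22 in experiment 3. The part of these differences in the results was not tested.

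**Figure D4:**
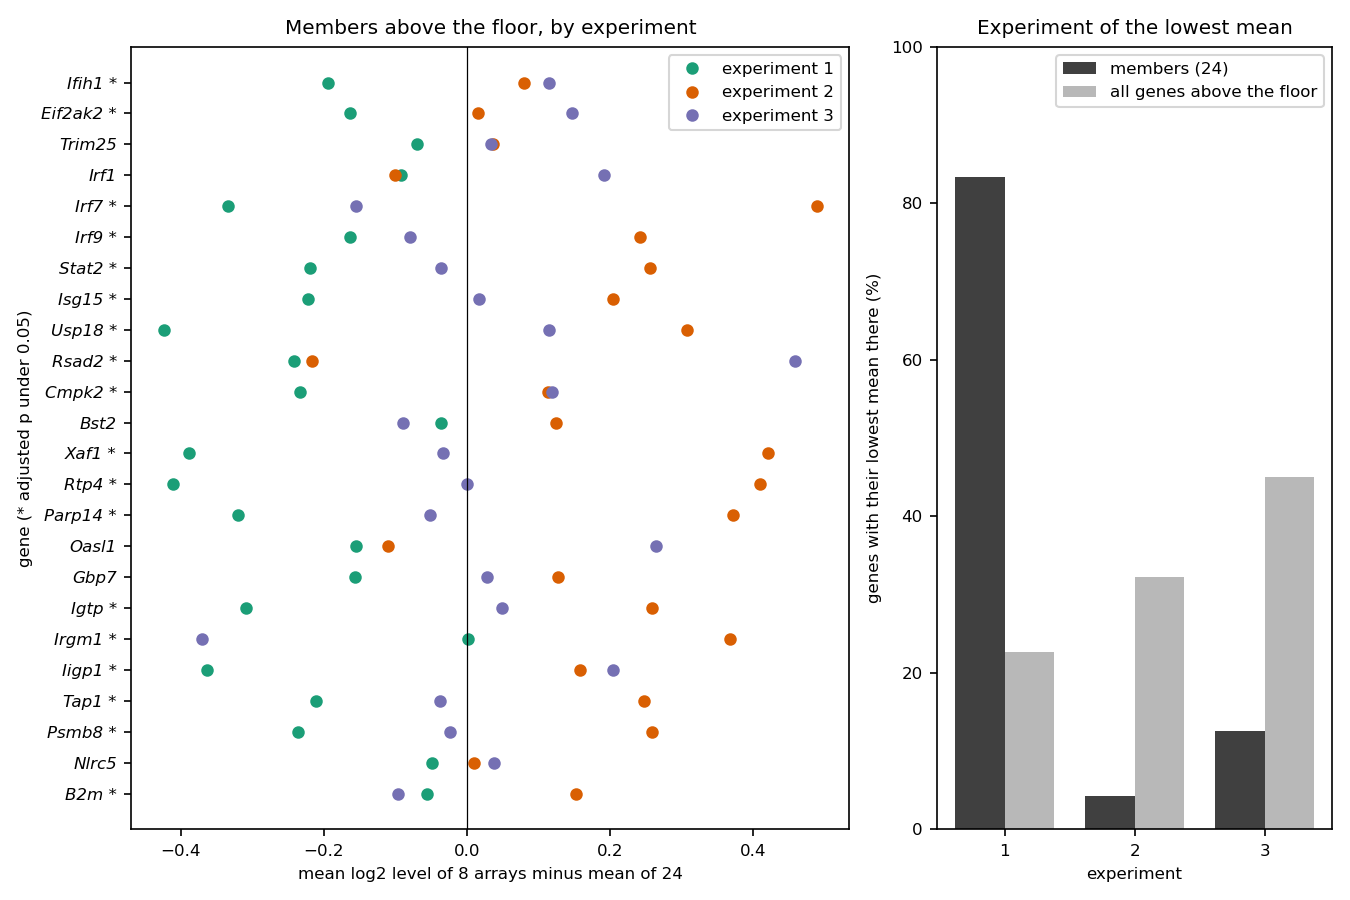
Left, the mean log2 level of each experiment (8 arrays) minus the mean of all 24 arrays, for the 24 genes above the floor, with an asterisk where the test between experiments had an adjusted p under 0.05. Right, the share of genes whose lowest mean lay in each experiment, for the 24 interferon response genes (dark bars) and for all genes above the floor (light bars); it was experiment 1 for 83.3% of the 24 genes and for 22.7% of all genes above the floor.

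The genes also varied together from array to array. Taken as deviations from the group means on the 24 arrays, the 276 pairs of the 24 genes had a median r of 0.48, against 0.02 over pairs of all genes above the floor. With the means of the experiments removed too, the median r was 0.33, against 0.01. The arrays share cell pools, and these values are a description. Usp18 and Igtp had the closest likeness in the remaining deviations (r = 0.91), followed by Stat2 and Igtp (0.89). Trim25, which followed the hormone most clearly, had a median r of -0.16 with the other genes, Nlrc5 -0.12 and Irf9 -0.10, so that these did not share the common deviation. Of neighbouring genes, Rsad2 and Cmpk2 had an r of 0.58, whereas Tap1 and Psmb8 had -0.06.

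Other genes of the interferon pathways were counted from a further list. Of 83 symbols listed, 73 had a measurement, and 26 of these were near the floor. Under glucagon 6 were higher and 7 lower, and 60 did not pass, which makes 17.8% called, against 16.2% of all genes. With the block 11 were higher and 15 lower, which makes 35.6%, against 24.6% of all genes. GW4064 and the hairpin called 0 of them, and 37 differed between experiments, which is 50.7%, against 30.2% of all genes. Most of the 73 lay above the floor, unlike most of all genes. Among all genes above the floor, 35% passed for the hormone, 52% with the block and 60% between experiments. The shares of this list are therefore not read as an excess. Of 9 interferon genes measured 6 were near the floor, among them Ifnb1 at 2.40, and none passed for the hormone without the block. With it Ifnk, the interferon kappa gene, was higher (0.37, near the floor, adjusted p = 0.00591).

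Of 14 receptor and JAK-STAT genes, Ifngr1, the ligand-binding chain of the interferon gamma receptor, had a lowest, median and highest level of 9.22, 9.37 and 9.85 under glucagon, against 9.96, 10.11 and 10.37 under insulin. The groups did not overlap, and the difference was -0.69 (SE 0.070, adjusted p = 4.1e-07). Ifnlr1, the interferon lambda receptor chain, was also lower (-0.32, near the floor), and Socs3, a feedback inhibitor of cytokine receptors, was higher (0.54, adjusted p = 4.7e-05, near the floor). Of 16 genes of virus sensing, Tlr3, the endosomal receptor of double-stranded RNA, had 6.50, 7.01 and 7.40 under glucagon, against 5.60, 6.01 and 6.49 under insulin. The groups did not overlap in Tlr3 either, and the difference was 0.94 (SE 0.12, adjusted p = 1.0e-05). Mavs, the mitochondrial adaptor of RNA sensors (0.36), and the antibody receptor gene Trim21 (0.42, near the floor) were higher too. Myd88, the adaptor of most Toll-like receptors, stood at 7.25, 7.66 and 7.95 under glucagon, against 8.02, 8.23 and 8.47 under insulin (-0.57, SE 0.075, adjusted p = 1.2e-05). The kinase gene Tbk1 was at -0.31 (adjusted p = 0.0342). With the block 3 of the 16 were higher and 4 lower. Those lower only with it were Ddx58, the RIG-I gene (-0.40, limma adjusted p = 0.0694, and 7.1e-04 with the block), and Irf3 (-0.20, 0.0887, and 0.00147 with the block).

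Of 7 chemokine and ligand genes that interferons induce, Cxcl10 was lower under glucagon, with 3.82, 4.27 and 5.01, against 4.37, 4.80 and 5.47 under insulin (-0.57, SE 0.10, adjusted p = 4.0e-04), and Cxcl11, near the floor, was at -0.18. Of 27 further interferon-induced genes Herc6, the mouse ligase that attaches ISG15 (0.26), and Lgals9, a galectin gene (0.21), were higher, and Daxx, a gene of a nuclear body protein, was lower (-0.54, adjusted p = 2.1e-06). The other 24 did not pass without the block. With it 5 of the 27 were higher and 6 lower. The lower ones included Samd9l (-0.27, adjusted p = 0.00128), Irgm2 (-0.34, 0.00306) and Adar (-0.19, 0.00871), the gene of an enzyme that edits double-stranded RNA. The receptor and JAK-STAT, virus sensing and further induced genes thus included calls in both directions, as the 36 genes did. Of the genes called in the receptor and JAK-STAT list, Socs3 and Ifnlr1 were near the floor. With the block 2 of the 14 were higher and 2 lower. The one added was Jak2, a JAK kinase gene (0.12, limma adjusted p = 0.0322 with the block). The chemokine and ligand genes had 0 higher and 2 lower.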

How the data were processed

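The values analysed were log2 expression values as the authors deposited them, 1 value for each of 41345 probe sets on each of 24 arrays, with 0 missing. That they are log2 values follows from their range of 1.46 to 13.5. Per the series' design text, GeneSpring was used, a sample pools its technical replicates, and an experiment pools cells of 3 mice. How arrays were normalized and background corrected is not given in the sources used here. Per the labels' protocols, 300 ng of total RNA went into labelling. Array medians lay between 3.21 and 3.28.

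Gene names came from the platform annotation, which gave 1 symbol to 23521 probe sets, several to 1814 and none to 16010. Only probe sets with 1 symbol were used, with the probe set of the highest mean for each of 22180 genes. Symbols were brought up to date through RefSeq (GRCm38.p6).

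The tests used lmFit and eBayes of limma 3.58.1 under R 4.3.3, with 1 mean per group, all 24 arrays and 16 residual degrees of freedom, and p-values were adjusted by Benjamini-Hochberg over all 22180 genes at a threshold of 0.05. Differences averaged over 4 conditions, differences within single conditions and 3 interactions were tested. Differences between experiments were tested with limma's F test in a fit with group and experiment. Arrays were paired by experiment number, since the labels' numbers mark a shared cell pool, per the series' design text. In all 84 pairs of arrays of 1 experiment the residuals about the group means correlated, at r = 0.374 to 0.698, and for 24 of 24 arrays the best match came from the same experiment. The experiment as a block was therefore an alternative fit (14 residual degrees of freedom), and the number of arrays limits the precision. The median standard error was 0.063 for an averaged difference and 0.13 for a single one. On simulated data the averaged hormone test recovered 81% of changes of 0.5 and 95% of changes of 1 on the log2 scale. The test in shlacZ cells with DMSO recovered 34% and 82%. The simulated noise was independent between arrays, without an effect of the experiment, and the changed genes were all above the floor. These rates therefore do not cover genes near the floor or arrays that correlate within an experiment.

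The 40 genes, the further pathway genes, the cell type markers and the tests were chosen with earlier results of these data known. Every one of the 40 genes is accounted for. Values are given for genes past the threshold in any comparison, for those past it only with the block, for the 3 of the highest mean, the 3 of the widest range and the 3 with the largest difference between experiments, and further values were added after they were seen. Promoter windows came from RefSeq and were searched in Python 3.11.15, and figures were drawn with matplotlib 3.10.9. Other alternatives were the experiment as a random block, median centring, quantile normalization, leaving out genes near the floor, averaging probe sets, a trended prior, and leaving out each experiment, each array, or the 3 arrays of experiment 3 that stood apart, the last chosen after seeing the data.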

Additional observations from a re-analysis of the deposited data

How the results depend on the processing

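Counts below are of the 36 interferon response genes. With the experiment as a replicate block, the hormone count rose to 12, against 6 without it, and in single conditions to 4 (shFOXA2 with GW4064), 3 (shFOXA2 with DMSO), 5 (shlacZ with GW4064) and 5 (shlacZ with DMSO), against 1, 1, 1 and 2. Because the design is balanced, this block left each difference as it was and changed its error. With the experiment as a random block, the counts were 5 in shlacZ cells with GW4064 and 4 with DMSO. Quantile normalization gave 1 in shlacZ cells with DMSO. With genes near the floor left out, so that fewer genes were tested, 3 passed in shlacZ cells with GW4064 and 1 in the test of hormone by experiment. Leaving out 1 experiment at a time gave 5 to 7 for the averaged hormone count, 1 to 2 for shFOXA2 with GW4064, 1 to 3 for shlacZ with GW4064, 1 to 2 for shlacZ with DMSO, 13 to 19 for the differences between experiments and 0 to 1 for hormone by experiment. Leaving out 1 array at a time gave 6 to 8 for the averaged hormone count. Without the 3 arrays of experiment 3 that stood apart, 1 gene passed in shlacZ cells with DMSO. The cause of these changes was not tested, other than the fewer genes or arrays named.

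Among 52 results of single genes, 0 changed sign under any alternative. Of the 34 called, 26 kept their call in all alternatives run. Of the 6 hormone calls, Trim25, Stat2, Irf1 and Cmpk2 kept theirs in 35 of 35, Rsad2 in 33 and Nlrc5 in 34. GW4064 and the hairpin called 0 of the genes under every alternative run. The small number of arrays per group limits the single comparisons, and genes near the floor can hardly show a fall.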
